A study of Mus musculus with 2 samples.

Results

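Genes of 6 amino acid transporter families, SLC1, SLC3, SLC7, SLC36, SLC38 and SLC43, were measured by RNA-seq of polyadenylated RNA in G1E-ER4, a mouse erythroid cell line that is immortalized. They were chosen as protein-coding genes whose symbol begins Slc1a, Slc3a, Slc7a, Slc36a, Slc38a or Slc43a and goes on with a number, which gave 43 of 21474 protein-coding genes in the tables. Slc7a6os matches that pattern only because it is named for lying opposite Slc7a6, and the account below is of the other 42 genes, all of them named as transporters. The cells come from a line without Gata1 that was given back GATA1 as a fusion with the hormone-binding part of an estrogen receptor, and they are labelled as treated with estradiol (E2) to induce differentiation, with no dose or time. The 2 libraries form 1 group, labelled biological replicates 1 and 2 from one and the same biosample record; whether the spread between them is technical is unknown, and no condition can be compared.

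Amino acids carry charged groups, even where their net charge is neutral, and cross membranes mainly through carriers. SLC7 light chains need a heavy chain of the SLC3 family to reach the cell surface, while SLC1, SLC38 and SLC43 proteins work without one. Some SLC36 and SLC38 members sit in the lysosome, where amino acids released from degraded protein are exported and sensed by the mTORC1 kinase complex. Erythroid cells depend on such uptake for the synthesis of globin and, through glycine, of haem.

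Levels are given as TPM, a relative transcript level corrected for transcript length so that genes can be set side by side. Detection here means that neither library reads below 1 TPM. Replicate 1 totals 68901065 estimated counts and replicate 2 totals 51923117. All 10 erythroid markers looked at were detected, although Alas2 (mean 1.72 TPM) was low. Among them Gata1 was given back to the cells as a fusion, so its detection says little on cell type. Of the markers of other cell types, only the megakaryocyte genes Itga2b and Gp1ba were detected, 2 of 5 on that list, and Ppbp and Gp6 had 0 counts. No marker of macrophages and granulocytes, mast cells, T cells, B cells, fibroblasts or pluripotent cells was detected, and the summed level of each of those lists lay between 0 and 0.49 TPM in each library.

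A small set of carriers made up nearly all of the transporter message. Of the 42 genes 14 were detected, against 39.0% of all protein-coding genes, and 18 of the 42 had 0 counts in both libraries, a share of 42.9% beside 41.4% of all protein-coding genes. The median level over the 42 genes was 0.0075 TPM, beside 0.025 TPM over all protein-coding genes. Neither share sets the families apart from other genes, and both medians lie too near 0 to be compared. Over detected genes alone the median was 20.7 TPM in the families and 20.5 TPM in all protein-coding genes. The summed level was 489 TPM (replicate 1) and 558 TPM (replicate 2), averaging 523 ± 49 TPM (SD, n = 2). The 4 highest genes, Slc3a2, Slc7a5, Slc38a10 and Slc7a8, held 72.7% of it in replicate 1 and 75.8% in replicate 2, and the 8 highest held 93.7% and 93.1%. In counts the 42 genes took 0.135% of replicate 1 (95% Clopper-Pearson interval 0.134 to 0.135%) and 0.156% of replicate 2 (0.155 to 0.157%), intervals that cover counting error only. In a bulk sample fewer cells that use a gene and less RNA per cell cannot be told apart.

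**Figure D1:**
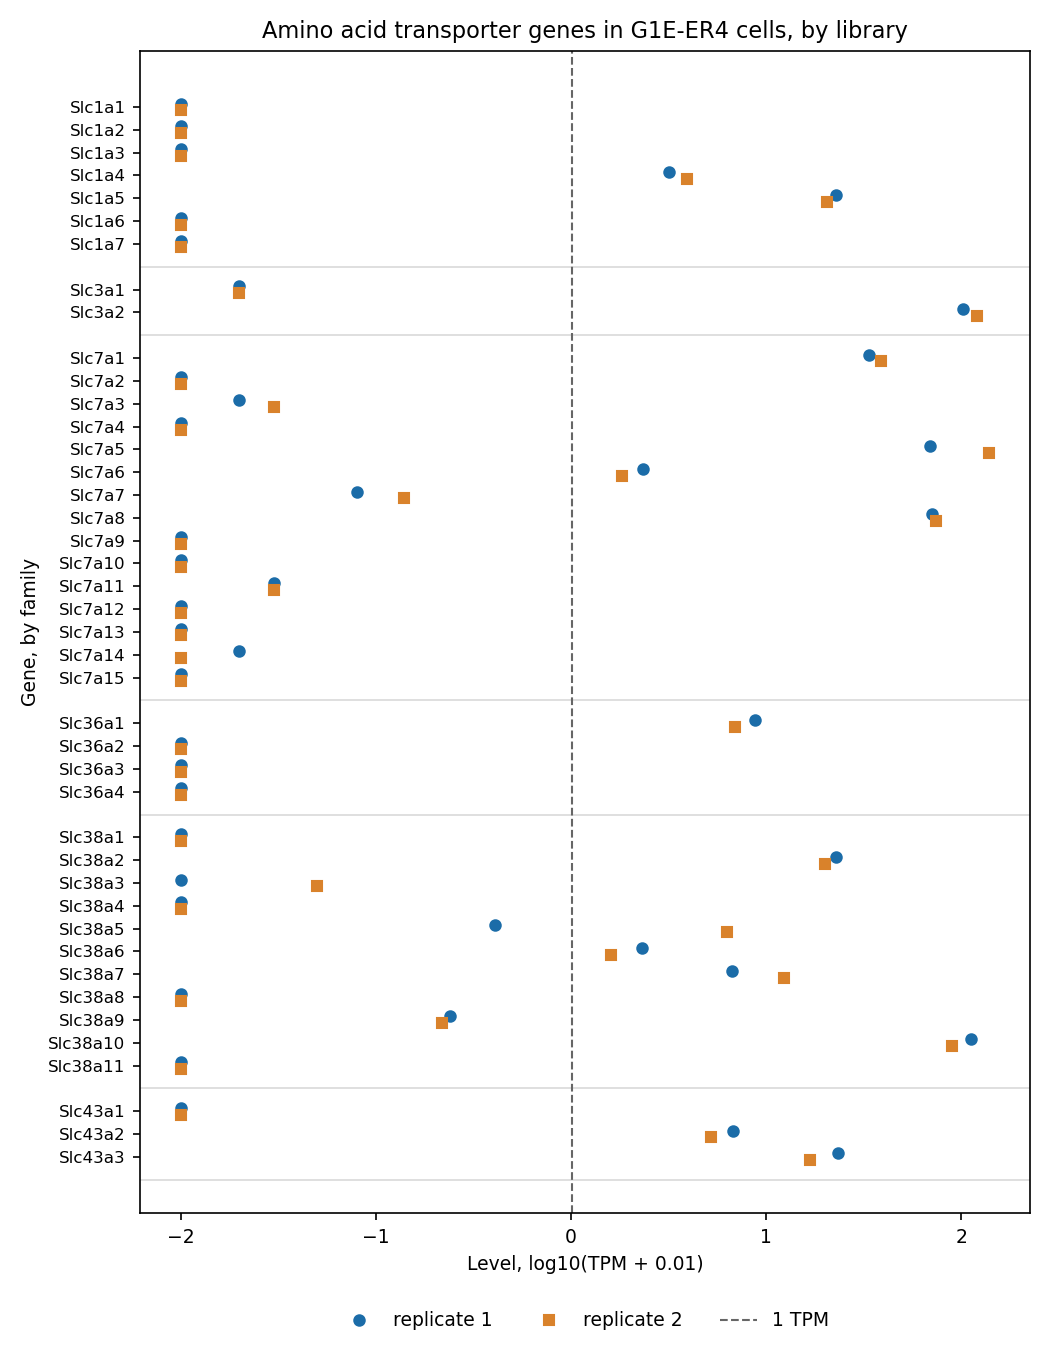
Level of each of the 42 transporter genes as log10(TPM + 0.01), with circles for replicate 1, squares for replicate 2 and a dashed line at 1 TPM. In every family detected genes stand beside genes at or near 0, and 14 genes lie right of the line in both libraries.

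By family, SLC7 held the largest share of the summed TPM, 36.1% in replicate 1 and 45.7% in replicate 2, from 4 detected genes of 15. SLC38 followed with 29.6% and 23.3% from 4 of 11 genes, and SLC3 with 21.01% and 21.52% from 1 of 2. SLC43 held 6.16% and 3.93% from 2 of 3 genes, SLC1 5.31% and 4.36% from 2 of 7, and SLC36 1.79% and 1.24% from 1 of 4. The ranking of SLC7, SLC38 and SLC3 was thus the same in both libraries. It was not the same on transcripts of 1000 bases or more, where SLC38 held 19.4% and SLC3 25.2% on average.

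**Figure D2:**
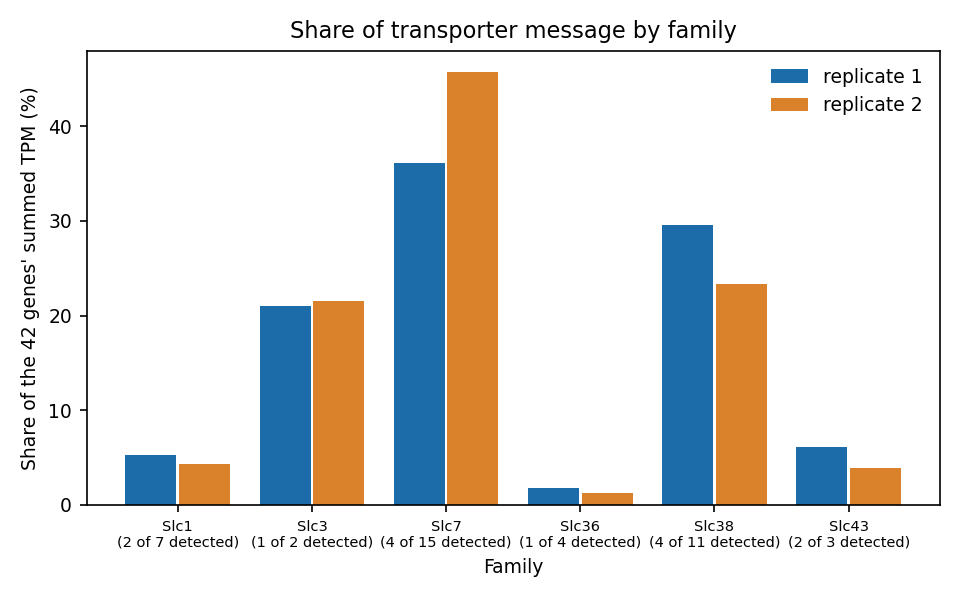
Share of the summed TPM of the 42 genes held by each family, in percent, with a bar for replicate 1 left of a bar for replicate 2 and the number of detected genes under each family. SLC7 is the tallest pair of bars at 36.1% and 45.7%, and it is also where the libraries lie farthest apart.

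The heavy chain of the surface heterodimers was among the most abundant members, highest by the mean of both libraries but in neither library alone. Slc3a2 encodes the heavy chain of CD98, which carries SLC7 light chains to the plasma membrane, and stood at 102.69 TPM (replicate 1) and 120.09 TPM (replicate 2), averaging 111 ± 12.3 TPM (SD, n = 2). This places it above 84.7% of detected protein-coding genes. Slc38a10 stood above it in replicate 1 and Slc7a5 in replicate 2, so these genes are not ordered. The other heavy chain, Slc3a1, which serves cystine and dibasic amino acid uptake in kidney and gut, had 1 count in each library (0.01 TPM). Its light chain partners Slc7a9 and Slc7a13 had 0 counts in both.

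Among the light chains of CD98, a pair of leucine-type carriers dominated. Slc7a5 encodes LAT1, which exchanges large neutral amino acids such as leucine, and stood at 69.33 TPM (replicate 1) and 139.52 TPM (replicate 2), averaging 104 ± 49.6 TPM (SD, n = 2). Slc7a8 encodes LAT2, a related exchanger with a broader range of neutral substrates, and stood at 71.27 and 74.22 TPM, a mean of 72.7 ± 2.09 TPM. The libraries therefore disagree on their order, with Slc7a5 over Slc7a8 at 0.973 in replicate 1 and 1.88 in replicate 2. Slc7a6, the light chain y+LAT2 that exchanges cationic for neutral amino acids, was far lower at 2.34 and 1.81 TPM, and Slc7a8 stood 30.5 and 41.0 times above it.

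The remaining CD98 light chains were close to 0. Slc7a7, which encodes y+LAT1, had 8 and 12 counts in replicates 1 and 2 (0.07 and 0.13 TPM). Slc7a11, which encodes xCT, the cystine and glutamate exchanger that feeds glutathione synthesis, had 8 and 7 counts (0.02 TPM in each). Slc7a10, the small neutral amino acid carrier Asc-1, had 0 counts in both. The 6 CD98 light chains summed to 143 TPM (replicate 1) and 216 TPM (replicate 2). Slc3a2 over this sum was 0.718 and 0.557, a mean of 0.637 ± 0.114 (SD, n = 2), so heavy chain message stood below the summed light chain message in both libraries.

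Cationic amino acids had a carrier of their own. Slc7a1 encodes CAT-1, the widespread uptake carrier for arginine and lysine, which needs no heavy chain, and stood at 33.6 TPM (replicate 1) and 39.08 TPM (replicate 2), averaging 36.3 ± 3.87 TPM (SD, n = 2). It was 14.4 and 21.6 times the level of Slc7a6. Slc7a2 and Slc7a4 had 0 counts, Slc7a3 had 1 and 2, and Slc7a14 had 2 and 0. Slc7a12 and Slc7a15 had 0 counts in both libraries.

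In SLC1 the neutral amino acid exchangers were detected and the glutamate carriers were not. Slc1a5 encodes ASCT2, which takes up glutamine among other neutral amino acids, and stood at 22.75 TPM (replicate 1) and 20.44 TPM (replicate 2), averaging 21.6 ± 1.63 TPM (SD, n = 2). Slc1a4, which encodes ASCT1, an exchanger of alanine, serine and cysteine, stood at 3.19 and 3.91 TPM, a mean of 3.55 ± 0.509 TPM. Slc1a5 was 7.13 and 5.23 times above it. The 5 glutamate carriers, Slc1a1, Slc1a2, Slc1a3, Slc1a6 and Slc1a7, had at most 1 count in a library. For Slc1a2 the authors' posterior mean TPM, another estimate in the same tables, read 1.46 and 1.67 against a TPM of 0, so that this gene is detected on that estimate alone.

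SLC38 held both a surface carrier and carriers inside the cell. Slc38a2 encodes SNAT2, the sodium-coupled carrier of small neutral amino acids whose activity is known to rise on amino acid shortage, and stood at 22.76 TPM (replicate 1) and 20.0 TPM (replicate 2), averaging 21.4 ± 1.95 TPM (SD, n = 2). The libraries of Slc38a2, Slc1a5 and Slc43a3 overlap, so these genes are not ordered. Slc38a10, a member whose transport role is less well known, stood at 112.22 and 89.37 TPM, a mean of 101 ± 16.2 TPM. The closest relatives of Slc38a2, the system A genes Slc38a1 and Slc38a4, had 0 counts in both libraries. At this depth a gene read at 0 could still hold 3 counts, or 4.35e-06% of replicate 1 and 5.78e-06% of replicate 2.

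Lysosomal members were present at lower levels. Slc38a7 encodes SNAT7, which exports glutamine and asparagine from lysosomes, and stood at 6.68 TPM (replicate 1) and 12.33 TPM (replicate 2), averaging 9.51 ± 4.0 TPM (SD, n = 2). Slc36a1, which encodes the proton-coupled carrier PAT1 found on lysosomes, stood at 8.74 and 6.9 TPM, a mean of 7.82 ± 1.30 TPM. The library values of both genes overlap. Slc38a9, whose protein senses lysosomal arginine for mTORC1, had 121 and 84 counts but only 0.23 and 0.21 TPM. Slc36a2, Slc36a3 and Slc36a4 had 0 counts in both libraries.

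The other SLC38 members were low or uneven. Slc38a6 stood at 2.32 TPM (replicate 1) and 1.6 TPM (replicate 2), from 83 and 43 counts, and 31.3% of its 31-base words also occur in other genes, so its level is uncertain. It is not ordered against Slc7a6, since their library values overlap. Slc38a5 encodes SNAT5, a system N carrier of glutamine and glycine, and read 0.4 TPM (replicate 1) and 6.32 TPM (replicate 2), from 38 and 88 counts. It was therefore the gene nearest to detection among those not detected. Slc38a3 had 0 and 1 count, and Slc38a8 and Slc38a11 had 0.

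In SLC43, 2 of 3 genes were detected. Slc43a1, which encodes the leucine-type carrier LAT3, had 0 counts in both libraries. Slc43a2, which encodes the related LAT4, stood at 6.8 TPM (replicate 1) and 5.19 TPM (replicate 2), averaging 6.0 ± 1.14 TPM (SD, n = 2). Slc43a3 stood at 23.3 and 16.76 TPM, a mean of 20.0 ± 4.62 TPM, 3.43 and 3.23 times the level of Slc43a2. Over transcripts of 1000 bases or more Slc43a2 stood at 4.15 and 4.83 TPM, and this ratio was only 1.69 and 1.05. The human SLC43A3 protein is known as a carrier of purine nucleobases, so its level need not bear on amino acids.

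How much of a gene's TPM came from full-length transcript models differed among members. Slc7a8, Slc38a2 and Slc7a6 have only 1 annotated transcript, so no split can be seen in them. Slc7a1 had all of its TPM on 1 of 3 coding transcripts in both libraries, and the leading transcript of Slc3a2 (ENSMUST00000010239, 2572 bases, protein-coding) held 93.5% in replicate 1 and 96.0% in replicate 2. For Slc36a1, however, a 460-base model classed as a processed transcript held 65.8% and 61.1% of the TPM from 104 and 59.4 of its 1024 and 666 counts. For Slc38a7 a 540-base retained-intron model held 54.0% and 70.9%. For Slc38a10 the 4554-base coding model held 51.1% and 67.2%, with most of the rest on short models.

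Since TPM divides by length, a few reads on a short model weigh heavily. Counted over transcripts of 1000 bases or more, a choice made after the values were seen, Slc38a10 stood at 59.3 TPM (replicate 1) and 62.2 TPM (replicate 2) and came below Slc7a8 in both. On the same measure Slc36a1 stood at 2.99 and 2.63 TPM, Slc38a7 at 1.92 and 2.85 TPM and Slc43a3 at 7.03 and 5.09 TPM. Slc38a6 fell below the threshold at 0.2 and 0.17 TPM, which leaves 13 detected genes. Slc38a5 stood at 0.36 and 0.41 TPM, since 93.6% of its TPM in replicate 2 lay on a 360-base model that held 56.6 counts there and 0.47 in replicate 1. Slc7a5 kept 99.7% of its TPM on its 3517-base coding model in replicate 1 and 87.9% in replicate 2, at 69.1 and 122.6 TPM.

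**Figure D3:**
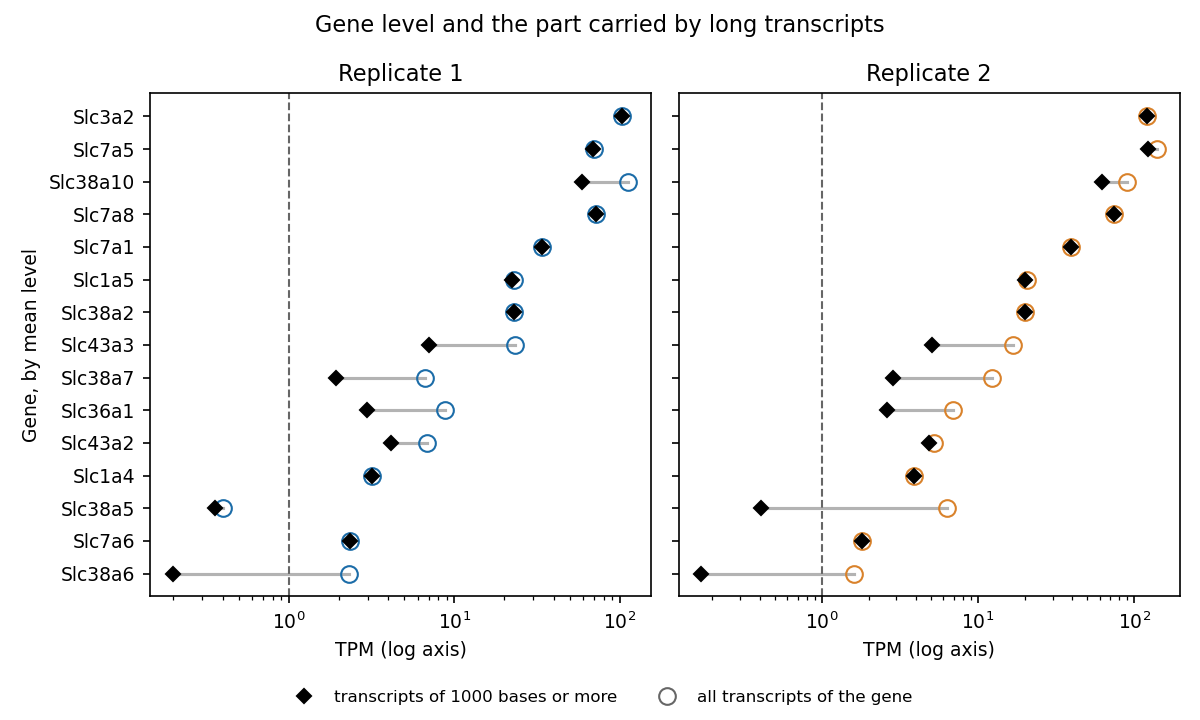
TPM on a log axis for the 14 detected genes and Slc38a5, in replicate 1 on the left and replicate 2 on the right, with open circles for all transcripts of a gene and diamonds for its transcripts of 1000 bases or more. Circle and diamond coincide for Slc3a2, Slc7a8, Slc7a1 and Slc38a2. They lie apart for Slc38a10, Slc43a3, Slc38a7, Slc36a1 and Slc38a6, for Slc43a2 in replicate 1 and for Slc38a5 in replicate 2.

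Leading models also changed between libraries in a few genes. In Slc1a4 a 3872-base coding transcript held 81.9% of the TPM in replicate 1 and none in replicate 2, where a 3926-base coding transcript held 100%. Together they gave 3.19 and 3.91 TPM, so the split between them moved far more than the sum. Of the 11 detected genes with several annotated transcripts, 9 had the same leading transcript in both libraries, with Slc1a4 and Slc38a6 as the exceptions. Few other annotated genes overlap the detected members, and those that do and are in the tables had at most 0.27 TPM, read at Gm11769 opposite Slc38a10.

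Transporter genes differed between the libraries about as much as other genes. The log2 ratio of replicate 1 over replicate 2 in counts scaled by edgeR's TMM method could be formed for 17 of the 42 genes, those averaging 10 counts or more, and 2 of them were 2-fold or more apart, beside 9.73% of 10863 genes of all kinds. Both were higher in replicate 2, as were 7.73% of all genes, and none was higher in replicate 1, beside 2.00%. A count of 2 in 17 is near these shares. The median absolute log2 ratio was 0.31 over these 17 genes and 0.30 over all. In TPM, where Slc38a5 is also 2-fold apart, Slc7a5 takes the place of Slc7a7. Slc38a5 stood apart at -1.73 (95% counting interval -2.32 to -1.16). Its 360-base model held 0.47 counts in replicate 1 and 56.6 in replicate 2, while its 1868-base coding model held 37.5 and 29.1. The ratio thus rests on the short model, and the interval does not cover how reads were assigned to models. Slc7a7, at -1.10, had an interval of -2.60 to 0.31 from its few counts. No test is possible with 1 library on each side, and the intervals hold counting error alone.

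Of the abundant genes, Slc7a5 differed most, at -0.95 (95% counting interval -0.98 to -0.92), just short of 2-fold. Slc3a2, the chain it pairs with, was at -0.32 and Slc7a8 at -0.16, so the heavy chain and both light chains all leaned toward replicate 2 by unequal amounts. Slc38a10 at -0.08, Slc38a2 at 0.09 and Slc1a5 at 0.06 were nearly level. Slc43a3 at 0.41 and Slc38a6 at 0.43 leaned toward replicate 1.

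**Figure D4:**
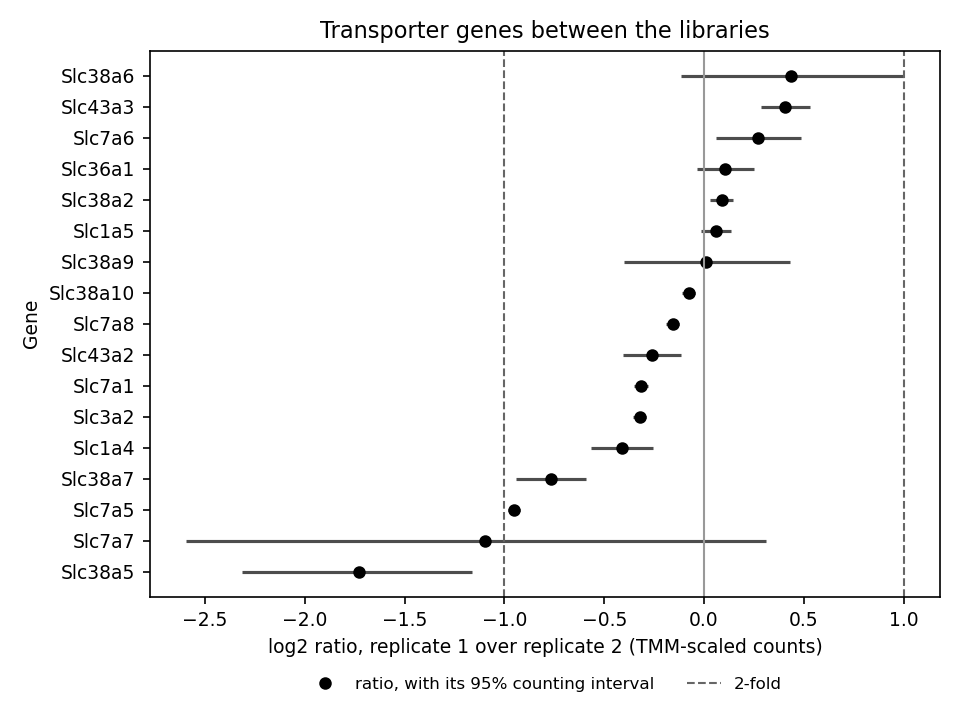
Log2 ratio of replicate 1 over replicate 2 in TMM-scaled counts for the 17 transporter genes that average 10 counts or more, with lines for 95% counting intervals and dashed lines at 2-fold. Slc38a5 and Slc7a7 lie beyond 2-fold toward replicate 2, Slc7a5 lies just inside it at -0.95, and the other genes lie between -0.77 and 0.43.

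Of 34 genes for amino acid sensing at the lysosome 29 were detected, beside 39.0% of all protein-coding genes, with a median of 11.1 TPM beside 0.025 TPM over all protein-coding genes. The scaffold genes Lamtor2 and Lamtor1 averaged 146 and 145 TPM and the GATOR1 subunit gene Nprl3 95.2 TPM. Nprl3 had 4990 counts (replicate 1) and 3575 counts (replicate 2), fewer than Rptor, which averaged 69.5 TPM from 12497 and 10010. Levels on this list were not split by transcript model, so whether short models raise them was not tested. Members below 1 TPM in a library were Nprl2 at 0.92 TPM (replicate 1) and 0.68 TPM (replicate 2), the Rag GTPase gene Rragd at 0.54 and 0.31 TPM, the sestrin gene Sesn3 at 0.02 and 0.01 TPM, and Rragb and Castor2 with 0 counts. The Rag partners Rraga and Rragc averaged 67.5 and 28.9 TPM, and the leucine sensor gene Sesn2 23.1 TPM.

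Of 12 amino acid carriers outside the 6 families, most of them of the plasma membrane, 2 were detected, beside 39.0% of all protein-coding genes. Slc6a9, which encodes the glycine carrier GlyT1 known for its role in haem synthesis of red cell precursors, stood at 14.25 TPM (replicate 1) and 15.67 TPM (replicate 2). Slc16a10, which encodes the aromatic amino acid carrier TAT1, stood at 5.06 and 4.72 TPM. Slc6a20a and Slc6a20b tied next at a mean of 0.01 TPM, and they and the rest (Slc6a5, Slc6a6, Slc6a7, Slc6a14, Slc6a15, Slc6a17, Slc6a18 and Slc6a19) had at most 4 counts in a library. Among 7 further lysosomal and vesicular carriers with a match, 5 were detected, set against the same 39.0%. Mfsd12 (lysosomal cysteine import) averaged 39.2 TPM, and Slc66a1, listed as Pqlc2 (cationic amino acid export), averaged 5.45 TPM. Slc15a4 (histidine and peptides) lay between them at 13.36 and 10.7 TPM. Slc15a3 and Slc32a1 had at most 1 count.

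Enzymes that use the carried amino acids were detected in 13 of 17 cases, beside 39.0% of all protein-coding genes. Gclm, a subunit of the first enzyme of glutathione synthesis, averaged 612 TPM and the serine to glycine enzyme gene Shmt2 463 TPM. Gclm read higher from fewer counts (31076 in replicate 1 and 17890 in replicate 2) than Shmt2 (52324 and 50583). Whether short models raise these levels was not tested. The cystine carrier gene Slc7a11 thus stood near 0 in cells where Gclm, Gclc (mean 22.9 TPM) and Gss (mean 19.3 TPM) of glutathione synthesis were detected. Phgdh, the entry enzyme of serine synthesis, had 0 and 1 count, and the arginase genes Arg1 and Arg2 and the branched-chain aminotransferase gene Bcat1 had 0 counts. The mitochondrial counterpart Bcat2 averaged 124 TPM. All 8 regulators looked at were detected, beside 39.0% of all protein-coding genes. Gata1 read highest (mean 1964 TPM), in cells that were given GATA1 back as a fusion. Whether its reads come from that fusion was not tested. Myc (763 TPM) and the amino acid response factor Atf4 (124 TPM) followed.

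Promoter windows of 300 bases, from 250 before to 50 after a RefSeq gene start (GRCm38.p6, the mm10 build), were found for 31 of the 42 genes, 11 of them detected. The detected genes Slc7a5, Slc1a5 and Slc43a3 had no window, so the motif shares below do not cover them. The median GC content was 60.3% in windows of the 11 detected members and 55.8% in those of the 20 others, beside 61.7% for detected and 52.3% for undetected protein-coding genes. The windows were searched on both strands for AGATAA (bound by GATA factors), TGATGNAA (the C/EBP and ATF response element, CARE, that ATF4 binds), TGACNNNGC (the antioxidant response element of NRF2) and CACGTG (an E-box, bound by MYC and by regulators of lysosomal genes). None of the 11 detected members held AGATAA, beside 7.20% of detected protein-coding genes, and 1 held the CARE letters, beside 2.43%. The antioxidant letters were in 4, beside 17.0%, and the E-box in 2, beside 12.9%. Over all windows of this length the shares were 11.2% for AGATAA, 3.97% for the CARE letters, 12.4% for the antioxidant letters and 7.15% for the E-box. A match describes letters and not a bound site.

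The 2 detected members with an E-box are the lysosomal carriers Slc36a1 (chr11:55204090-55204389, plus strand) and Slc38a7 (chr8:95853442-95853741, minus strand), and their windows are shown for that reason. The Slc38a7 window lies at the start of its long coding model, which held only 1.92 TPM (replicate 1) and 2.85 TPM (replicate 2). Its leading retained-intron model starts 9638 bases further along the gene, outside the window. The CARE letters are shown in Slc1a4 (chr11:20332664-20332963, minus strand), which was detected, and in Slc7a11 (chr3:50443564-50443863, minus strand), which holds 2 copies and was near 0. Slc7a11 was picked for printing after its values were seen. Capitals mark matches to the 4 searched motifs, and in Slc36a1 the second E-box overlaps a match to the antioxidant letters.
Slc36a1: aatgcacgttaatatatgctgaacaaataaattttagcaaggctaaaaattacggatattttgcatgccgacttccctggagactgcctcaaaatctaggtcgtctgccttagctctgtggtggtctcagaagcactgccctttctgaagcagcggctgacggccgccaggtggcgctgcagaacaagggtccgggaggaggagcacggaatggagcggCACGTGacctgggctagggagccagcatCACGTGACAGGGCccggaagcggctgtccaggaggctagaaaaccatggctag
Slc38a7: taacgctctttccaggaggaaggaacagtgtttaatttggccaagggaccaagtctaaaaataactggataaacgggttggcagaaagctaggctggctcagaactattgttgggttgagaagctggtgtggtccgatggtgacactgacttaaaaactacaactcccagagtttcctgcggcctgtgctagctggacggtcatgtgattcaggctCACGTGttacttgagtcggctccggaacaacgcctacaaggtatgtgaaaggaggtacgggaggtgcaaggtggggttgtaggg
Slc1a4: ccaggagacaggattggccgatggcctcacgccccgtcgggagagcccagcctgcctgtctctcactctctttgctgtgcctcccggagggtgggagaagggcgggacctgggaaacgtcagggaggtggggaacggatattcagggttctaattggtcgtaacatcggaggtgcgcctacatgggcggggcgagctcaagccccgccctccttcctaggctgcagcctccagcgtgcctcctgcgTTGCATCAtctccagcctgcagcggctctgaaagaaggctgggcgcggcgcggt
Slc7a11: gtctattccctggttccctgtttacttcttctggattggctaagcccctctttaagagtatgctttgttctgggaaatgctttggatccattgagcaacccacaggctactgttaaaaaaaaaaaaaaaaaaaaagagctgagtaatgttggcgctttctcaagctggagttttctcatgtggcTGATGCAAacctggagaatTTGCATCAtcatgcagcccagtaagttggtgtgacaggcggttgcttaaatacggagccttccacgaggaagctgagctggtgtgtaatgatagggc
In Slc36a1 the E-boxes begin at base 220 and base 248 of the window, and in Slc38a7 at base 217. In Slc1a4 the CARE letters begin at base 247, and in Slc7a11 at bases 185 and 204. The annotated start lies after 250 bases. Among the 20 undetected members, AGATAA was in 4, the CARE letters in 2, the antioxidant letters in 1 and the E-box in 5. Over all undetected protein-coding genes the shares were 13.5%, 5.01%, 13.7% and 6.64%, in that order. The E-box thus occurred in undetected members (Slc1a6, Slc1a7, Slc7a14, Slc38a5 and Slc43a1) as well as in the lysosomal carriers shown. The window of Slc38a9, the sensor of lysosomal arginine, held no E-box.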

How the data were processed

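Polyadenylated RNA of G1E-ER4 cells was measured in 2 libraries, grouped by their labels into 1 group. Expected counts and posterior mean counts are estimated counts per feature, TPM and FPKM are scaled for length and depth, and the isoform percent is the share of a gene's TPM, all as deposited by the authors and named per the file headers. Build (mm10) and annotation (GENCODE M4) are given in the labels and readme files. The sources used here name no aligner or quantifier and do not say whether counting used strand. The total counts, 68901065 and 51923117, limit precision only for genes with few counts.

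Symbols, classes and coordinates came from GENCODE M21 by identifier without version, which named 42462 of 43346 Ensembl genes, and M4 and M21 models can differ. Levels are means and SDs over both libraries. Counts were rounded and scaled by TMM in edgeR 4.0.16 (R 4.3.3), with ratios in genes of a mean of at least 10 counts. The exact intervals were tried on simulated counts that held counting error only. That check says nothing on the spread between libraries or on how reads were assigned to genes. DESeq2 1.42.0 size factors were an alternative. The gene families, companion lists, markers and thresholds were chosen with earlier results of these data known. Every detected gene was named with both values, and from each companion list the 3 highest genes and all below 1 TPM, others being named after their values were seen. Some genes that this rule or the marker lists would name are not reported here. One listed symbol, Slc66a4, found no match. Levels of companion and marker genes were not split by transcript model. Sequences came from RefSeq (GRCm38.p6). No protein sequence was used here.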

Additional observations from a re-analysis of the deposited data

How the results depend on the processing

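With 2 libraries of 1 group, neither a difference between conditions nor the spread between cultures can be measured, and depth limits genes such as Slc7a7, Slc7a11 and Slc38a5. No paired analysis was possible because there is only 1 group. The number of detected genes was 14 in the main count and between 11 and 15 under every alternative, 14 and 15 when judged on replicate 1 or replicate 2 alone. The summed level, 523 TPM, read 455 in FPKM units, which scale to a smaller total, 458 TPM over coding transcripts and 442 TPM over transcripts of 1000 bases or more, which leave out short models. Slc3a2 over its light chains, 0.637, read 0.445 in counts, which are not divided by length. The number of genes 2-fold apart was 2 with TMM, DESeq2 size factors, no filter and TPM, where Slc7a5 replaced Slc7a7, 1 with library totals and 0 at a mean of at least 100 counts, which removes both genes. The restrictions to coding and to long transcripts were chosen after seeing the data. Of 15 gene levels, 6 moved by more than the SD over long transcripts and 3 over coding transcripts, and none with posterior means. A single library of 2 and FPKM rescaled to the sum of TPM cannot move a level by this measure, and leaving out globin and mitochondrial genes scales all genes of a library alike, so these say nothing on stability.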

Other observations

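Some of the genes lie close together on a chromosome. With a limit of 500 kb between neighbours, chosen after the values were seen, 12 of the 42 genes fall into 5 groups. In 4 of these groups 1 gene was detected while its neighbours were not. That makes 4 detected genes of 12, beside 14 of all 42 and 39.0% of all protein-coding genes, so the grouped genes do not stand apart in this share. On chromosome 11 Slc36a1, at 8.74 TPM (replicate 1) and 6.9 TPM (replicate 2), lies 19.3 kb from Slc36a2 and has Slc36a3 beyond it, both with 0 counts. On chromosome 15 Slc38a2, at 22.76 and 20.0 TPM, lies 44.5 kb from Slc38a1 and 295 kb from Slc38a4, both with 0 counts. On chromosome 2 Slc43a3, at 23.3 and 16.76 TPM, lies 73.0 kb from Slc43a1 with 0 counts. On chromosome 14 Slc7a8, at 71.27 and 74.22 TPM, lies 304 kb from Slc7a7, at 0.07 and 0.13 TPM. In the fifth group, on chromosome 7, neither Slc7a9 nor Slc7a10 had a count.

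Slc7a6os, set aside above because it is named for its position, stood at 26.4 TPM (replicate 1) and 23.14 TPM (replicate 2), against 2.34 and 1.81 TPM for Slc7a6 itself.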
